A study of Rattus norvegicus with 43 samples.

Results

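The transcripts described here are those of de novo lipogenesis, the making of fatty acids from acetyl-CoA: Srebf1, the gene of the transcription factor SREBP-1, the enzyme genes Acly, Me1, Acaca, Acacb and Fasn, and Pnpla3, which acts on lipid droplets. They were taken by gene symbol from the annotation of the array platform and comprise 7 of the 4736 genes named there by a single symbol, read by 14 of 8740 probe sets. The measured levels had no part in that rule, but the genes were chosen with earlier results of these data known. Srebf1, Acaca, Acacb and Pnpla3 had 1 probe set each, Fasn had 2, Acly 3 and Me1 5. Where a gene had several, the values below are those of the probe set with the highest mean log2 signal over all arrays unless another is named.

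RNA of normal liver, lung and mammary gland from female Sprague-Dawley rats was hybridised to Affymetrix rat arrays, 1 array per sample. The rats were 100 days old when a treatment of 7 days began. The Targretin groups received bexarotene, a synthetic ligand of the retinoid X receptors (RXRs), by gavage at 60 mg/kg body weight. The 9cRA groups received 9-cis retinoic acid, which binds both retinoic acid receptors and RXRs, at 100 mg/kg diet. The 4HPR groups received 4-hydroxyphenylretinamide, a synthetic amide of retinoic acid, at 782 mg/kg diet. The diet groups received no agent, and the labels name no gavage control, so Targretin and the gavage itself cannot be told apart. The 43 arrays form 12 groups, 7 of 4 arrays and 5 of 3 (Targretin in each organ, 4HPR in mammary gland and diet in lung). Nothing in the labels tells whether each array stands for its own animal, so p-values measure only the spread between arrays.

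Values are MAS5 signals, linear and without unit, which the authors had scaled: after trimming 2% at each end, array means lay between 1501.78 and 1503.29. Differences are log2 differences of the signal plus a small constant, given with a 95% interval, and a gene passed where its limma p-value, adjusted over all probe sets tested in the organ, was under 0.05. Liver, lung epithelial, and adipocyte and mammary epithelial markers were high in the organ they belong to. Hepatocyte markers were also found outside the liver: the summed signal of 17 of them was 755499 to 1255960 on liver arrays, 10579.7 to 184802 on lung arrays and 6823 to 148210 on mammary gland arrays. The ratio of 3' to 5' signal of the GAPDH control, which rises when transcripts are copied or preserved incompletely, was 0.963 to 1.22 on liver arrays apart from 4HPR liver 4 at 2.26. It was 0.867 to 1.54 on lung arrays apart from Targretin lung 2 at 2.54, and 2.45 to 4.12 on mammary gland arrays. In bulk tissue, fewer cells of a type and less RNA per cell cannot be told apart.

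In lipogenesis, citrate that has left the mitochondrion is cleaved to acetyl-CoA by ATP citrate lyase (Acly), and the acetyl-CoA is carboxylated to malonyl-CoA by the acetyl-CoA carboxylases (Acaca in the cytosol, Acacb at the mitochondrial surface). Fatty acid synthase (Fasn) joins these units into palmitate with NADPH, part of which malic enzyme (Me1) supplies. SREBP-1 activates the genes of these enzymes when insulin is high, and its own gene is switched on by liver X receptors, which bind DNA together with RXR; an RXR ligand can activate that pair. Liver, adipose tissue and the lactating mammary gland are the chief sites of the pathway.

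Of the 7 genes, 5 had an upstream window in the RefSeq promoter table of the rat build GRCr8, 6 windows in all, because Srebf1 had 2 starts. Fasn and Acaca had none there. The 3 windows below, each covering the 250 bases before a start, are shown because Srebf1 encodes the regulator of the pathway and Acacb is the one carboxylase gene with a window. They are written 5′ to 3′ on the minus strand, at chr10:45529165-45529414 and chr10:45519011-45519260 for Srebf1 and at chr12:48138215-48138464 for Acacb. Capitals mark matches to the NF-Y box CCAAT and the GC box GGGCGG on either strand.
Srebf1, upstream start: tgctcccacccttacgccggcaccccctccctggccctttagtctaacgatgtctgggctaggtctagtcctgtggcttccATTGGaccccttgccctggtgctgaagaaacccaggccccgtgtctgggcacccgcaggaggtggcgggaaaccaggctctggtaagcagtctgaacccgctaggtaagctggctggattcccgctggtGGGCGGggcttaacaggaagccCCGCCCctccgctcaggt
Srebf1, downstream start: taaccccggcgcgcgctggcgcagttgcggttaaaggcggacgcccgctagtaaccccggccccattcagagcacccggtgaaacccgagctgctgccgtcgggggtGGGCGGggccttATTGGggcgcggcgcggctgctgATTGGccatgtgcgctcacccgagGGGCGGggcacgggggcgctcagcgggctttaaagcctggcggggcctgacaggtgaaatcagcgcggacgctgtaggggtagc
Acacb: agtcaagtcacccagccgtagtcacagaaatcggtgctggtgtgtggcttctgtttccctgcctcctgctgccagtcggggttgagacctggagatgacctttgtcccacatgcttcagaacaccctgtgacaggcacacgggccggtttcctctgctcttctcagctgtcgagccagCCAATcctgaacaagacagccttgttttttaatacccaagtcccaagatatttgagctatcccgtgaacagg

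In human and mouse, SREBP-1a is transcribed from the upstream start of this gene and SREBP-1c, the main form in liver, from the downstream start; the single Srebf1 probe set was not used to tell them apart. In the upstream Srebf1 window the NF-Y box lay 169 bases before the start and the GC boxes 40 and 18 bases before it. The downstream Srebf1 window held NF-Y boxes 131 and 108 bases and GC boxes 143 and 84 bases before its start, and the Acacb window held an NF-Y box 72 bases before its start and no GC box. The GC content of these windows was 64%, 70.4% and 53.6%. The NF-Y box was found in 5 of the 6 member windows, against 34% of 33469 windows of the same length, and the GC box in 5 of 6, against 30.5%. The core of the sterol response element, searched as TCACNCCAC on both strands, and the E-box CACGTG were found in 0 of 6 windows, against 0.974% and 5.59% of all windows. Exact DR1 and DR4 repeats, the spacings read by RXR with PPARs and with liver X receptors, were found in 0 of 6 windows, against 0.0508% and 0.00299%. The letters are a description of these windows and say nothing about binding.

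In livers of Targretin rats, 6 of the 7 lipogenic genes rose and the other, Acly, did not pass. Pnpla3 rose 11-fold, Fasn 8.19-fold and Acacb 7.51-fold, while Me1 rose 3.76-fold, Acaca 3.44-fold and Srebf1 2.42-fold. Over all 6071 probe sets tested in liver, 11.2% passed in either direction and 4.89% were higher. The arrays of 6 genes did not overlap upwards, where 10.6% of probe sets did so. The median difference was 1.91 over the 7 genes, against -0.02 over all probe sets tested. Acacb was tested only because its signal exceeded the 40th percentile of the array on treated arrays, 3 of 3 with Targretin, 4 of 4 with 9cRA and 3 of 4 with 4HPR, against 0 of 4 diet arrays. Of the other 6 genes, 5 rose.

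Srebf1 had signals of 9717.7, 2660.9 and 2652.7 on the Targretin liver arrays, against 1906.8, 1665.3, 1298.9 and 1877.1 on the diet liver arrays. All Targretin arrays were above all diet arrays, but 1 of them lay far above the other two. The difference was 1.28 (0.43 to 2.12, adjusted p = 0.0492). Without that array, Targretin liver 1, the difference was 0.66 (adjusted p = 0.279). The call was lost in 10 of the 15 fits that each left out 1 array, also when an array of diet, 9cRA or 4HPR was omitted, with adjusted p between 0.0303 and 0.279. It was also lost with no filter on dim probe sets (adjusted p = 0.0641), without the arrays in doubt (adjusted p = 0.0609; 4 arrays named in an earlier account of these data) and in 1 fit of the arrays of all organs (adjusted p = 0.121).

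Acly, which makes cytosolic acetyl-CoA, had signals of 35136.1, 28125.9 and 21351.6 with Targretin, against 14874.9, 12427.9, 20392.7 and 25391.4 with diet. The groups overlapped, and the difference of 0.65 (0.17 to 1.13, adjusted p = 0.0769) did not pass. With replicate number as a block it was 0.77 and passed (adjusted p = 0.0167), and it also passed with array weights (adjusted p = 0.0491), without Targretin liver 3 (adjusted p = 0.0401) or without diet liver 4 (adjusted p = 0.0226). Me1, which yields NADPH, had 12095, 5375 and 5357.6 with Targretin, against 1744.6, 1448.3, 2049.7 and 2239.1 with diet. The lowest Targretin array exceeded the highest diet array by a wide margin, and the difference was 1.91 (1.38 to 2.44, adjusted p = 7.54e-05). Of the 4 other Me1 probe sets, 3 gave rises of 1.72 to 2.33. The remaining one, rc_AI171067_at, was dim in both groups, with means of 357.7 and 309.5, and differed by 0.28 (adjusted p = 0.629).

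Acaca, the cytosolic carboxylase whose malonyl-CoA feeds fatty acid synthesis, had signals of 1428.1, 903.1 and 834.6 with Targretin, against 242.7, 506.7, 330.5 and 123.8 with diet. The groups did not overlap, and the difference was 1.78 (0.92 to 2.64, adjusted p = 0.00778). It no longer passed without Targretin liver 1 (1.55, adjusted p = 0.0531). Acacb, the carboxylase whose malonyl-CoA restrains fatty acid entry into mitochondria, had 1233.3, 1401.9 and 1077.1 with Targretin, against 144.1, 216.7, 105 and 84.2 with diet. Its 3 Targretin arrays lay close together and far above the diet arrays, a difference of 2.91 (2.06 to 3.76, adjusted p = 0.000124). All 4 diet arrays were dim for this probe set, so the size of the fold depends on the constant added before taking logarithms.

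Fasn had signals of 35308.2, 29771.4 and 23739.6 on the Targretin liver arrays, against 2870.1, 3219.3, 3751.5 and 4488.9 on the diet liver arrays. The difference was 3.03 (2.64 to 3.43, adjusted p = 1.88e-08), and the second Fasn probe set gave 3.01 (adjusted p = 2.53e-05). Pnpla3, which encodes a lipid droplet protein with acyltransferase and lipase activity and is a target of SREBP-1c in mouse liver, had 9915.3, 4033.6 and 2514.6 with Targretin, against 425.7, 256.3, 353.9 and 584.6 with diet. The 3 Targretin arrays spanned a wide range, yet the lowest was far above the highest diet array, and the difference was 3.46 (2.45 to 4.46, adjusted p = 0.000112). Targretin liver 1 was the highest array for Srebf1, Acly, Me1, Acaca, Fasn and Pnpla3, and Targretin liver 2 for Acacb. The calls for Fasn, Acacb, Me1 and Pnpla3 were kept in each of the 15 fits that left out 1 array.

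**Figure D1:**
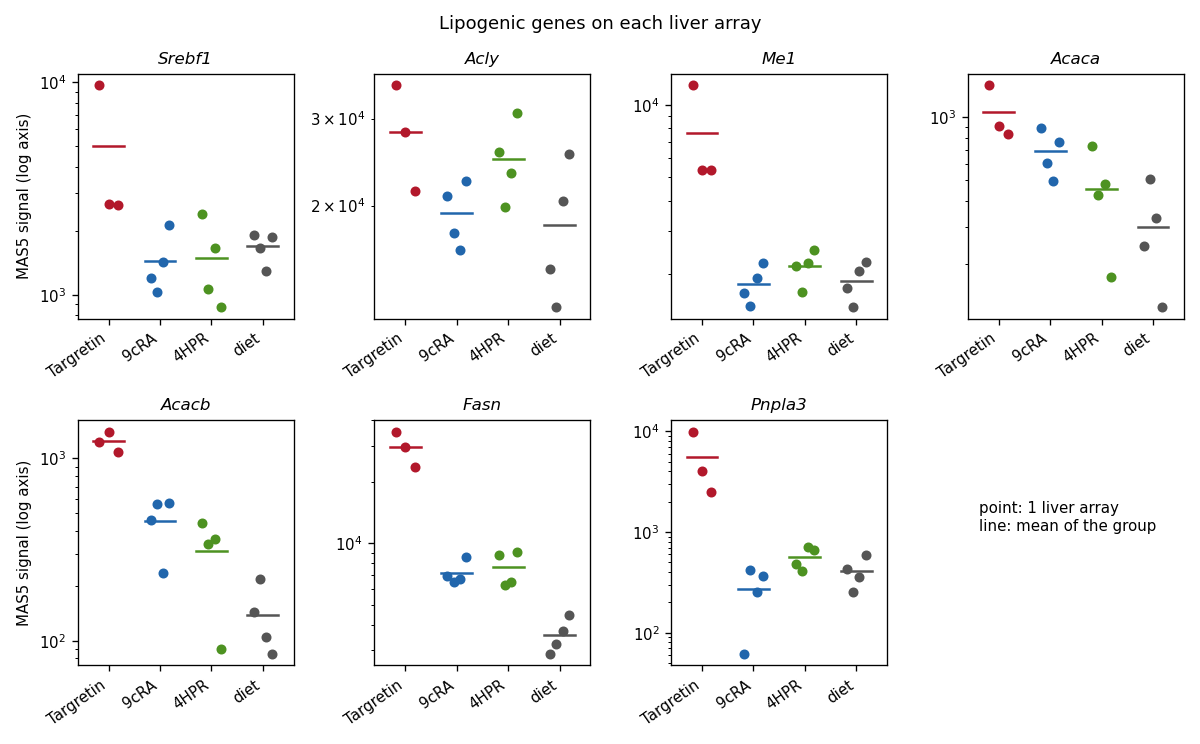
MAS5 signal (log axis) of the 7 lipogenic genes on each liver array, with 3 Targretin arrays and 4 arrays each of 9cRA, 4HPR and diet; each point is an array and each line the mean of its group. For every gene except Acly all Targretin points lie above all diet points, and for Fasn the 9cRA and 4HPR points also lie above all diet points.

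Beside these rises, hepatocyte markers had a summed signal of 755499 to 1009360 with Targretin and 781892 to 917439 with diet, and 0 of 17 were higher and 2 lower. Other marker sums did not overlap between the groups. The sum of 11 adipocyte markers was 11322.8 to 12484.9 with Targretin and 7971 to 9604 with diet, and 1 of 8 tested rose. Of the 11, 7 to 8 exceeded the 40th percentile on each array of both groups. Among the markers under that percentile on all of these arrays were Fabp4 and Plin1. The sum of 6 macrophage and antigen presenting cell markers was 10144.2 to 13896.1 with Targretin and 15198.5 to 18306.6 with diet, and 2 of 4 tested fell. The sum of 3 blood markers was 17573.5 to 33249.7 with Targretin and 38894.4 to 67469.8 with diet, and 0 of 3 passed with limma. The part of these markers in the rises was not tested. The GAPDH 3' to 5' ratio was 1.05 to 1.18 on the Targretin liver arrays and 0.963 to 1.20 on the diet liver arrays.

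With 9cRA in liver, Fasn and Acacb rose and the other 5 genes did not pass, where 5.16% of all probe sets tested passed and 2.55% were higher. Fasn had 6903.5, 6454.9, 6678.9 and 8547.2 with 9cRA, against 2870.1, 3219.3, 3751.5 and 4488.9 with diet. The groups did not overlap, where 6.59% of all probe sets were higher in that way, and the difference was 1.0 (0.63 to 1.36, adjusted p = 0.00338), a 2.0-fold rise. Its second probe set differed by 1.05 without passing (adjusted p = 0.0770), and the call was also lost in 1 fit of the arrays of all organs (adjusted p = 0.0742). Acacb had 459.3, 561.6, 236.2 and 566 with 9cRA, against 144.1, 216.7, 105 and 84.2 with diet, a difference of 1.48 (0.69 to 2.27, adjusted p = 0.0266). That call was lost in 6 of the 15 fits that left out 1 array, with adjusted p up to 0.0842, when 9cRA liver 1, 2 or 4 or diet liver 1, 3 or 4 was omitted. Acaca had 886.5, 606.1, 498.2 and 758.7 with 9cRA, against 242.7, 506.7, 330.5 and 123.8 with diet, so that 1 array of each group lay within the range of the other. Its difference was 1.20 (0.40 to 2.0, adjusted p = 0.0785), and it passed without 4HPR liver 4 (adjusted p = 0.0254) or without diet liver 2 (1.47, adjusted p = 0.045). It also passed with quantile normalization, with array weights, with only the groups compared and without the arrays in doubt (adjusted p between 0.00872 and 0.0482).

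Srebf1 had 1196.3, 1027.4, 1425.3 and 2127.1 with 9cRA, and its difference of -0.26 (-1.04 to 0.53) did not pass. Pnpla3 had 61.1, 416, 254.3 and 364.6 with 9cRA and a difference of -0.66 (-1.59 to 0.27). Both genes overlapped with their diet arrays, and the wide intervals leave room for changes in either direction. Acly and Me1 differed by 0.12 and -0.04. In the median over the 7 genes the difference was 0.12, against -0.01 over all probe sets tested.

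With 4HPR in liver, Fasn was the gene that rose, where 2.78% of all probe sets passed and 1.19% were higher. It had 8815, 6251.4, 6444.8 and 9054.9 with 4HPR, against 2870.1, 3219.3, 3751.5 and 4488.9 with diet. The groups did not overlap, where 4% of all probe sets were higher in that way, and the difference was 1.08 (0.72 to 1.45, adjusted p = 0.00362), a 2.12-fold rise. In 1 fit of the arrays of all organs it did not pass (adjusted p = 0.0676). The second Fasn probe set had 7572.1, 6483.6, 7622.4 and 1985 with 4HPR, against 3525.7, 3635.2, 3694.8 and 4288.3 with diet, and did not pass (0.47, adjusted p = 0.469). Its low value was on 4HPR liver 4, the array with the high GAPDH ratio, where the first Fasn probe set read 4.56 times the second; on the other liver arrays that ratio was 0.760 to 1.24. On the same array Srebf1, Acaca and Acacb had the lowest signal of the 4HPR group, while Fasn, Acly and Me1 had the highest.

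Acacb had 444.3, 338.8, 362.4 and 90.2 with 4HPR, where the last value is again 4HPR liver 4. The difference from diet was 0.88 (adjusted p = 0.217) over all arrays and 1.3 (adjusted p = 0.0190) without that array, with 1.26 (adjusted p = 0.0128) under array weights, and in either case 2 genes passed. The other genes gave differences of 0.53 for Acaca, 0.48 for Acly, 0.46 for Pnpla3, 0.20 for Me1 and -0.26 for Srebf1. None of these passed with limma, and the arrays of each overlapped with diet. The median difference over the 7 genes was 0.48, against -0.10 over all probe sets tested. The 3 comparisons with diet share the same 4 diet arrays.

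The agents were compared in liver as 3 pairs, with p-values adjusted over the 6071 probe sets within each pair, although dose and route differed between Targretin and the other agents and dose differed between 9cRA and 4HPR. Targretin gave higher signals than 9cRA for 5 of the 7 genes, where 5.73% of all probe sets passed and 2.87% were higher. The differences were 4.12 for Pnpla3 (3.12 to 5.12, adjusted p = 2.19e-05), 2.03 for Fasn (1.64 to 2.43, adjusted p = 1.61e-06) and 1.95 for Me1 (1.42 to 2.48, adjusted p = 7.45e-05). They were 1.53 for Srebf1 (0.69 to 2.38, adjusted p = 0.0293) and 1.43 for Acacb (0.58 to 2.28, adjusted p = 0.0460). Srebf1 no longer passed without Targretin liver 1 (0.92, adjusted p = 0.189) or without 9cRA liver 1, 2 or 3, and Acacb was lost in 11 of the 15 fits that left out 1 array, those of every Targretin and 9cRA array included. With only the groups compared Srebf1 did not pass (adjusted p = 0.0646), and with replicate number as a block (adjusted p = 0.0713) or no filter (adjusted p = 0.0684) Acacb did not. Acaca differed by 0.58 (-0.28 to 1.44) and Acly by 0.53 (0.05 to 1.01), which did not pass, although the Acly probe set J05210_at did (0.86, adjusted p = 0.0393).

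Targretin exceeded 4HPR for the same 5 genes, where 7.89% of all probe sets passed and 4.17% were higher. The differences were 2.99 for Pnpla3 (1.99 to 4.00, adjusted p = 0.000512), 2.03 for Acacb (1.18 to 2.88, adjusted p = 0.00370) and 1.95 for Fasn (1.56 to 2.35, adjusted p = 2.88e-06). Me1 differed by 1.71 (1.18 to 2.25, adjusted p = 0.000254) and Srebf1 by 1.54 (0.69 to 2.38, adjusted p = 0.0255). The Srebf1 difference did not pass without Targretin liver 1 (0.92, adjusted p = 0.147), 4HPR liver 2 (1.42, adjusted p = 0.0655) or 4HPR liver 4 (1.32, adjusted p = 0.0553), nor with only the groups compared (adjusted p = 0.105). Acaca differed by 1.26 (0.40 to 2.12, adjusted p = 0.0724), with no overlap between the groups, where 11.8% of probe sets were higher in that way, and it passed without 4HPR liver 1 (1.52, adjusted p = 0.0349), without diet liver 4 (adjusted p = 0.0486) and with the larger constant (adjusted p = 0.0488). Acly differed by 0.17 (-0.31 to 0.65).

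Between 9cRA and 4HPR, 0 of the 7 genes passed with limma, where 0.165% of all probe sets passed and 11.9% had an unadjusted p under 0.05. The interval of the difference was narrow for Fasn (-0.08, from -0.45 to 0.28) and Me1 (-0.24, from -0.73 to 0.26). It was wide for Srebf1 (0.00, from -0.78 to 0.79), Acaca (0.67, from -0.12 to 1.47) and Acacb (0.60, from -0.19 to 1.39). Pnpla3 had an interval below zero, from -2.06 to -0.20 around a difference of -1.13, but its adjusted p was 0.337. These intervals do not show that the agents acted alike.

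In lung, Srebf1 rose with Targretin, and 3 of the 7 genes were too dim to be tested. Srebf1 had 3634.2, 1189.3 and 2579 on the Targretin lung arrays, against 428.8, 389.6 and 467.8 on the diet lung arrays. Every Targretin array lay far above the narrow diet range, and the difference was 2.29 (1.42 to 3.16, adjusted p = 0.0269), a 4.89-fold rise. It was the single passing gene of 4 tested, where 2.39% of all 5932 probe sets passed and 1.38% were higher. With replicate number as a block, 0 of 5932 probe sets passed and the Srebf1 difference was 2.04 (adjusted p = 0.0938), and with only the groups compared its adjusted p was 0.15. Without Targretin lung 1 the difference was 1.94 (adjusted p = 0.0610), and without diet lung 3 or diet lung 4 it was 2.23 or 2.35 (adjusted p = 0.125 and 0.123). The lowest of the 3 Targretin values belongs to Targretin lung 2, the lung array of highest GAPDH ratio, and without it the difference was 2.73 (adjusted p = 0.00617).

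Hepatocyte markers in lung had a summed signal of 12545 to 14704 with Targretin and 10579.7 to 59370.9 with diet, and the liver marker albumin read 40.1 to 355.4 on the Targretin lung arrays and 114.6 to 14890 on the diet lung arrays. Summed adipocyte markers were 12155.4 to 20065.7 with Targretin and 9353 to 11002.4 with diet, without overlap. Of the 11 adipocyte markers, 8 exceeded the 40th percentile on each Targretin lung array and 6 to 7 on the diet lung arrays, and 1 of the 9 tested rose, with a median difference of 0.77. Among the markers under that percentile on all 3 Targretin lung arrays were Fabp4 and Plin1. The part of these markers in the Srebf1 difference was not tested.

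Of the enzyme genes, Fasn, Acly and Me1 were tested in lung and did not pass. Fasn had 4461.3, 4827.4 and 4095.4 with Targretin, against 5614.9, 5474.2 and 6645.4 with diet. All Targretin arrays were below all diet arrays, and the difference of -0.40 (-0.78 to -0.02, adjusted p = 0.192) did not pass. Its second probe set gave 0.24 with overlapping groups, so the direction depends on the probe set. Acly differed by -0.13 and Me1 by -0.65 (-1.46 to 0.16). Of the 7 genes, Srebf1 and Acacb did not overlap upwards and Fasn did not overlap downwards, where 14.3% and 9.25% of all tested probe sets did so. Acacb had 111.2 to 275 with Targretin, against 49.2 to 77.3 with diet, all under the 40th percentile of the array. Acaca had 112 to 351.7 with Targretin and 109.7 to 190.2 with diet, and Pnpla3 30.5 to 53 with Targretin and 28.3 to 40.8 with diet, both overlapping.

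With 9cRA in lung, 0 of 5932 probe sets passed (0%) with limma, and 11.1% had an unadjusted p under 0.05. Srebf1 had 680.7, 957, 818.9 and 853.5 with 9cRA, against 428.8, 389.6 and 467.8 with diet, and the groups did not overlap. The difference was 0.88 (0.07 to 1.70, adjusted p = 0.425), where 8.07% of all tested probe sets were higher without overlap. Fasn had 4596.3, 4279.6, 3510.3 and 3255.1 with 9cRA, against 5614.9, 5474.2 and 6645.4 with diet, again without overlap, where 5.6% of probe sets were lower in that way. Its difference was -0.60 (-0.95 to -0.25, adjusted p = 0.315), and the second probe set gave 0.27. With array weights both genes passed (adjusted p = 0.0467 for Srebf1 and 0.00549 for Fasn).

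With 4HPR in lung, 0 of 5932 probe sets passed (0%) with limma, and 4.6% had an unadjusted p under 0.05. Srebf1 had 1330.5, 571.4, 506 and 377.4 with 4HPR, a difference of 0.50 (-0.31 to 1.31), and Fasn differed by -0.06 (-0.41 to 0.30). Pnpla3, too dim to be tested, had 74.8 to 250.1 with 4HPR against 28.3 to 40.8 with diet, where 2.51% of tested probe sets were higher without overlap. Summed hepatocyte markers were 34388.3 to 184802 with 4HPR and 10579.7 to 59370.9 with diet. Their median difference was 2.42, and 0 of 15 tested rose with limma. The part of these markers in the Pnpla3 values was not tested. Between agents in lung, Srebf1 was higher with Targretin than with 4HPR by 1.79 (adjusted p = 0.0353), the single difference among the 4 tested genes that passed, where 1.45% of all probe sets passed and 0.641% were higher. The difference of 1.40 between Targretin and 9cRA (0.59 to 2.22) did not pass (adjusted p = 0.298), where 0.0169% of probe sets passed and 10.5% had an unadjusted p under 0.05. Between 9cRA and 4HPR 0 of 4 genes passed, where 0% of probe sets passed and 9.52% had an unadjusted p under 0.05.

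**Figure D2:**
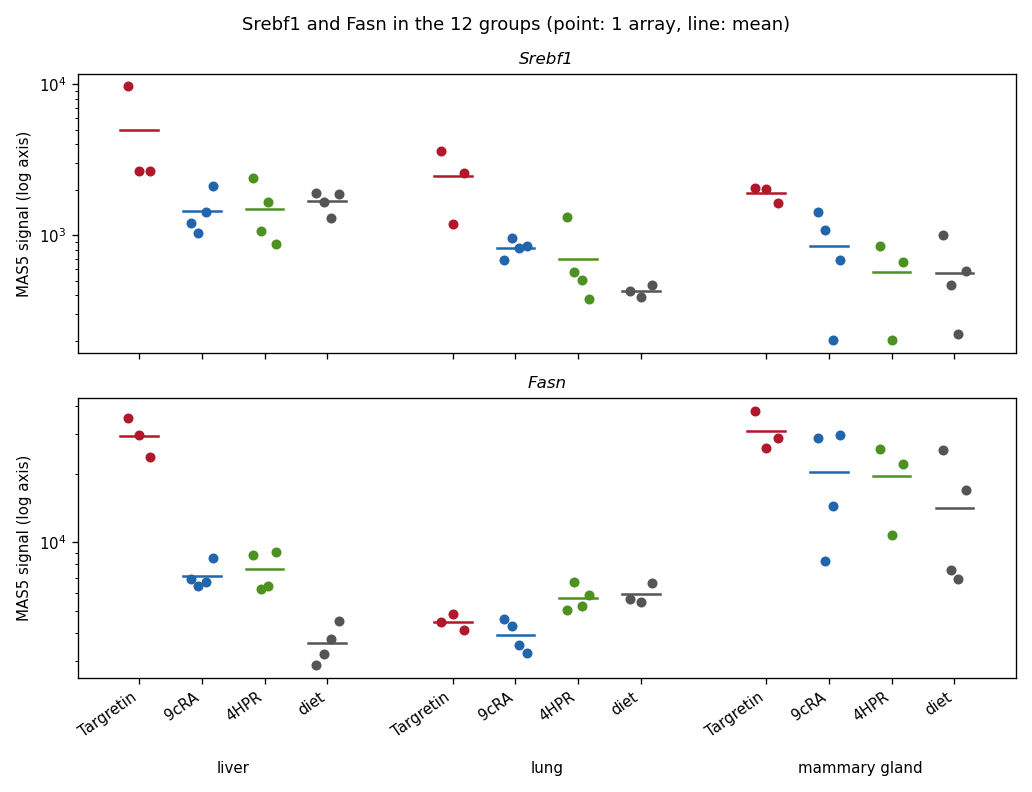
MAS5 signal (log axis) of Srebf1 (top) and Fasn (bottom) on all 43 arrays, grouped by organ and agent; points are arrays and lines are group means. In lung the 3 Targretin points of Srebf1 lie above the diet points while those of Fasn lie below them.

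In mammary gland, Srebf1 and Acaca rose with Targretin, and Fasn was higher on every array without passing. Of 6 genes tested, 2 passed, where 13.2% of all 6051 probe sets passed and 7.97% were higher. Srebf1 had 2058.8, 2020.4 and 1632.4 with Targretin, against 996.3, 466.6, 219.6 and 579 with diet. The Targretin arrays lay close together above a wide diet range, and the difference was 1.85 (0.60 to 3.09, adjusted p = 0.0495), a 3.6-fold rise. Acaca had 504.2, 423.7 and 339.9 with Targretin, against 116.2, 74, 42.6 and 89.8 with diet. There was again no overlap, and the difference was 1.98 (0.88 to 3.07, adjusted p = 0.0228), a 3.94-fold rise. Acaca met the filter through the treated arrays: its signal exceeded the 40th percentile on 3 of 3 Targretin, 1 of 4 9cRA and 1 of 3 4HPR arrays, against 0 of 4 diet arrays. Of the other 5 genes tested, 1 passed, Srebf1. The Srebf1 call was lost in 10 of the 14 fits that left out 1 array and the Acaca call in 5, with adjusted p up to 0.138 and 0.0734. Each Targretin array was among those whose omission ended both calls, as were diet mammary gland 2 and 3. Srebf1 also did not pass with quantile normalization (adjusted p = 0.0623) or no filter (adjusted p = 0.0701).

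Fasn had 38044.1, 26271.4 and 29021.2 on the Targretin arrays, against 25513.2, 7589.7, 6910.3 and 17005.5 on the diet arrays. Its groups, like those of Srebf1 and Acaca, did not overlap, where 17.2% of all tested probe sets were higher without overlap. The difference was 1.32 (0.27 to 2.37, adjusted p = 0.0866). It passed with replicate number as a block (1.46, adjusted p = 0.0257) and without diet mammary gland 1 (1.67, adjusted p = 0.0298). It also passed with array weights (adjusted p = 0.0358) and in 1 fit of the arrays of all organs (adjusted p = 0.00479). The second Fasn probe set, with 6363.7, 5953.4 and 5026.9 against 3175.1, 816.5, 833.7 and 2473.7, did not overlap either and passed (1.89, adjusted p = 0.0382).

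Acly had 53097.5, 31889.2 and 26836.1 with Targretin, against 32277.1, 33205.6, 32023.9 and 34245.8 with diet. The diet arrays were close together and inside the Targretin range, and the difference was 0.12 (-0.45 to 0.69). Me1 had 13690.5, 4129.5 and 9994.9 with Targretin, against 16178.5, 10654, 9637 and 11917.2 with diet, a difference of -0.52 (-1.65 to 0.61). Pnpla3 had 1959.1, 841.5 and 583.4 with Targretin, against 842.2, 737.8, 754.2 and 661.6 with diet, a difference of 0.39 (-0.60 to 1.38). These 3 genes overlapped between the groups. Acacb was not tested, with 49.8 to 260.1 with Targretin and 28.4 to 97.7 with diet. The median difference over the tested genes was 0.86, against 0.11 over all probe sets tested.

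The tissue markers of the mammary gland moved with Targretin. All 17 hepatocyte markers fell, with a median difference of -3.83 and a summed signal of 6823 to 11534.5 with Targretin and 89516.8 to 139263 with diet. Summed mammary epithelial markers were 268698 to 394917 with Targretin and 168512 to 262026 with diet. Summed adipocyte markers were 132804 to 211743 with Targretin and 165266 to 242294 with diet. Skeletal muscle markers summed to 59397.4 on Targretin mammary gland 3 and to no more than 3152.9 on any other mammary gland array. Without that array Srebf1 differed by 1.95 (adjusted p = 0.0913) and Acaca by 2.11 (adjusted p = 0.0511). The beta-actin control ratio of 3' to 5' signal was 2.86 to 3.69 with Targretin and 3.71 to 6.21 with diet, lower without overlap. The hexokinase ratio was higher without overlap, 4.31 to 16.9 against 0.863 to 3.83. GAPDH ratios overlapped, 2.82 to 4.12 against 2.48 to 3.20. The ratio of the 2 Fasn probe sets was 4.41 to 5.98 with Targretin and 6.87 to 9.30 with diet. The part of these ratios, and of the hepatocyte, epithelial, adipocyte and muscle markers, in these differences was not tested.

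**Figure D3:**
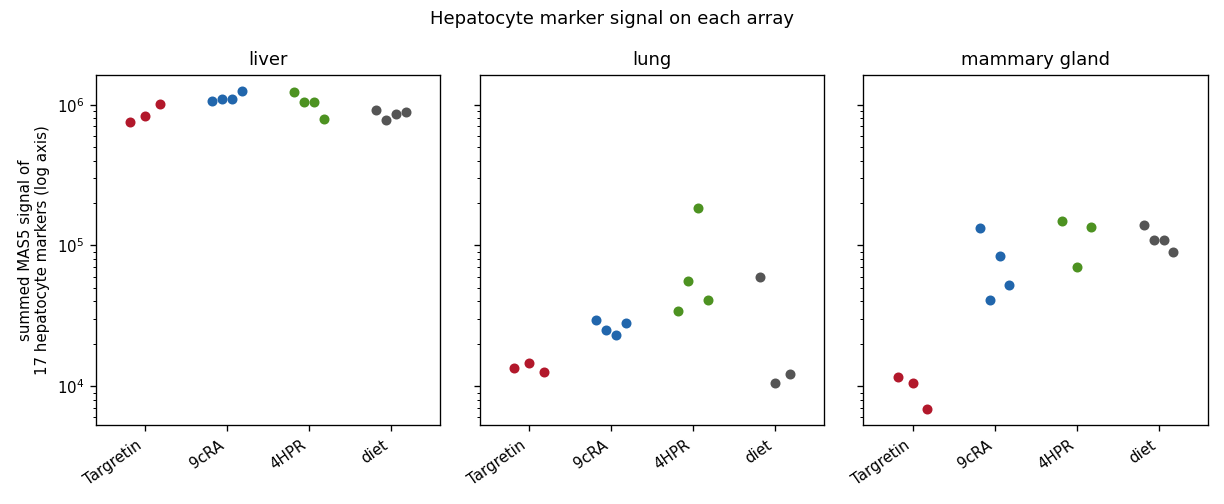
Summed MAS5 signal (log axis) of 17 hepatocyte markers on each array, by organ and agent; points are arrays. In mammary gland the 3 Targretin points, 6823 to 11534.5, lie below all other groups, whose lowest point is 41216.4.

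With 9cRA in mammary gland, 0 of 6051 probe sets passed (0%) with limma, and 18.7% had an unadjusted p under 0.05. With 4HPR 0 of 6051 passed (0%), and 2.99% had an unadjusted p under 0.05. Srebf1 had 1422.6, 1077.2, 200.4 and 687.5 with 9cRA, and 848.8, 201.4 and 669.1 with 4HPR. Fasn had 28963.7, 8263.8, 14520.1 and 29758.8 with 9cRA, and 25936.6, 10781 and 22297.5 with 4HPR. Both genes varied several-fold within each group and overlapped with diet. The differences with 9cRA were between -0.91 for Pnpla3 (-1.83 to 0.01) and 0.98 for Acaca (-0.03 to 2.0). With 4HPR they were between -0.12 for Pnpla3 and 0.58 for Fasn, with intervals from -1.26 at the lowest to 1.64 at the highest end. Between agents 0 of 6 genes passed in any of the 3 pairs. Of all probe sets, 2.05% passed between Targretin and 9cRA, 4.23% between Targretin and 4HPR and 0.0496% between 9cRA and 4HPR. In that order, 10.6%, 22.3% and 9.8% had an unadjusted p under 0.05.

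**Figure D4:**
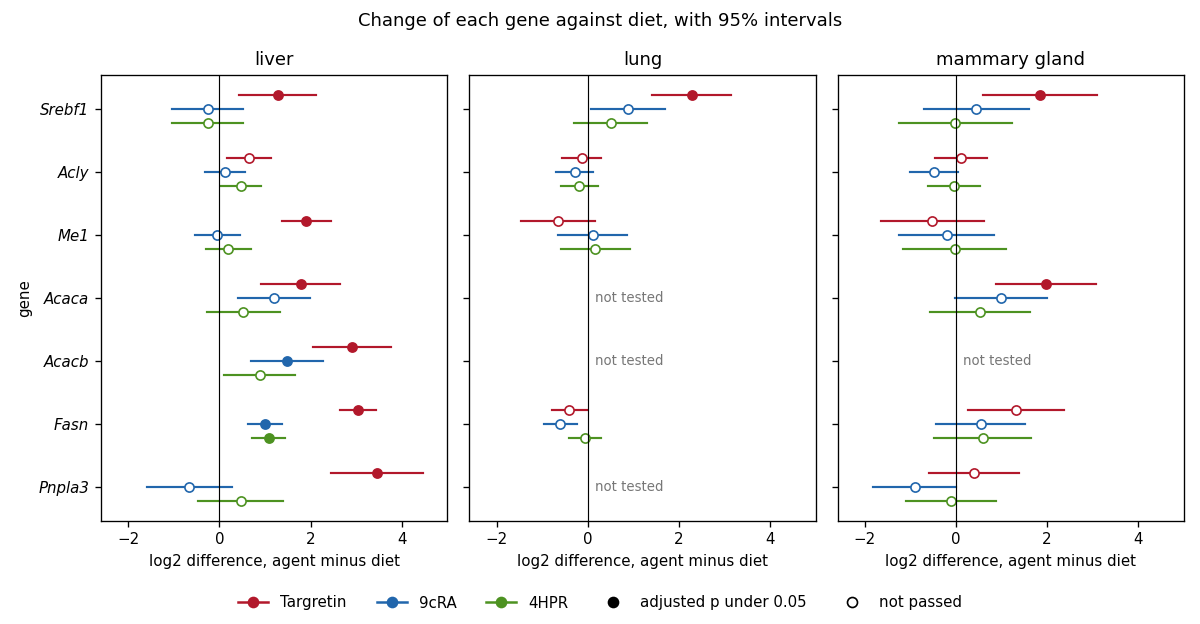
Log2 difference from diet, with 95% intervals, of each lipogenic gene for Targretin, 9cRA and 4HPR in liver, lung and mammary gland; filled points passed at an adjusted p under 0.05 and open points did not. In liver 6 Targretin points are filled, in lung 1 and in mammary gland 2; Acaca, Acacb and Pnpla3 in lung and Acacb in mammary gland were not tested.

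Whether the Targretin difference itself differed between organs was tested for the 4 genes measured in all of them, Srebf1, Acly, Me1 and Fasn. It differed for Fasn and Me1, where 13.3% of 5114 probe sets did. Fasn changed by 3.44 more in liver than in lung (adjusted p = 3.13e-05), 1.72 more in liver than in mammary gland (adjusted p = 0.0147) and 1.72 more in mammary gland than in lung (adjusted p = 0.0323). Me1 changed by 2.56 more in liver than in lung (adjusted p = 0.0179) and 2.43 more in liver than in mammary gland (adjusted p = 0.00553). Of all probe sets, 2.01% differed between liver and lung, 13.6% between liver and mammary gland and 6.67% between mammary gland and lung. The joint tests gave adjusted p = 4.23e-05 for Fasn and 0.00378 for Me1. The second Fasn probe set (adjusted p = 0.0219) and 3 other Me1 probe sets (adjusted p between 0.00797 and 0.0364) also passed the joint test. Between pairs of organs, the second Fasn probe set passed for liver against lung (2.78, adjusted p = 0.0301) but not for liver against mammary gland (1.13, adjusted p = 0.323) or mammary gland against lung (adjusted p = 0.176). The 3 other Me1 probe sets did not pass for liver against lung (adjusted p between 0.0506 and 0.104), and M26594_at did not for liver against mammary gland (adjusted p = 0.126).

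For Srebf1 the joint test gave adjusted p = 0.615, so the liver difference of 1.28, the lung difference of 2.29 and the mammary gland difference of 1.85 were not shown to differ. For Acly it gave 0.259 with the brightest probe set and 0.0332 with the probe set J05210_at. With 9cRA, Fasn gave adjusted p = 0.2, where 0.372% of probe sets passed. With 4HPR 0 of the 4 genes and 0% of probe sets passed. With array weights the Fasn test passed for both agents (adjusted p = 0.00354 with 9cRA and 0.0439 with 4HPR).

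Levels between organs rest on a scaling that sets unlike tissues to a common mean. In untreated rats Srebf1 was higher in liver than in lung by 1.87 (adjusted p = 0.00179) and than in mammary gland by 1.67 (adjusted p = 0.00238), where 56.1% and 60.5% of 5114 probe sets differed. Srebf1 had a single probe set, so whether this order depends on the probe set could not be checked. Its signal was 1687 ± 280.2 in diet liver (SD, n = 4), 565.4 ± 324 in diet mammary gland (SD, n = 4) and 428.7 ± 39.1 in diet lung (SD, n = 3). Over the 12 groups Srebf1 was highest in Targretin liver and lowest in diet lung. Each group in that order overlapped with the next, so no neighbouring pair was separated by the spread of its arrays. Among neighbours in the order of Fasn by its brighter probe set, only 4HPR lung and Targretin lung did not overlap. With this probe set Fasn had 31112 ± 6159 in Targretin mammary gland (SD, n = 3), 29606 ± 5786 in Targretin liver (SD, n = 3) and its lowest level, 3582 ± 705, in diet liver (SD, n = 4). The second probe set had 5781 ± 685 in Targretin mammary gland (SD, n = 3), 32113 ± 12133 in Targretin liver (SD, n = 3) and its lowest level, 1825 ± 1189, in diet mammary gland (SD, n = 4), so the order of the organs depends on the probe set.

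Me1 was higher in mammary gland than in lung by 4.09 (adjusted p = 7.56e-10) in untreated rats, where 44.6% of probe sets differed, and liver minus mammary gland gave -2.66 (adjusted p = 2.88e-07). For Fasn and Acly the order of liver and mammary gland depended on the probe set. The brighter Fasn probe set, M76767_s_at, gave -1.79 for liver minus mammary gland (adjusted p = 7.29e-06), and the other, X13527cds_s_at, gave 1.28 (adjusted p = 0.0151). For Acly, J05210_g_at gave -0.90 (adjusted p = 0.00064) and L27075_g_at gave 2.30 (adjusted p = 7.09e-05). The ratio of the first Fasn probe set to the second was 4.38 to 13.7 on the mammary gland arrays, which also had the highest GAPDH 3' to 5' ratios. No order of Fasn or Acly between liver and mammary gland is therefore given.

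**Figure D5:**
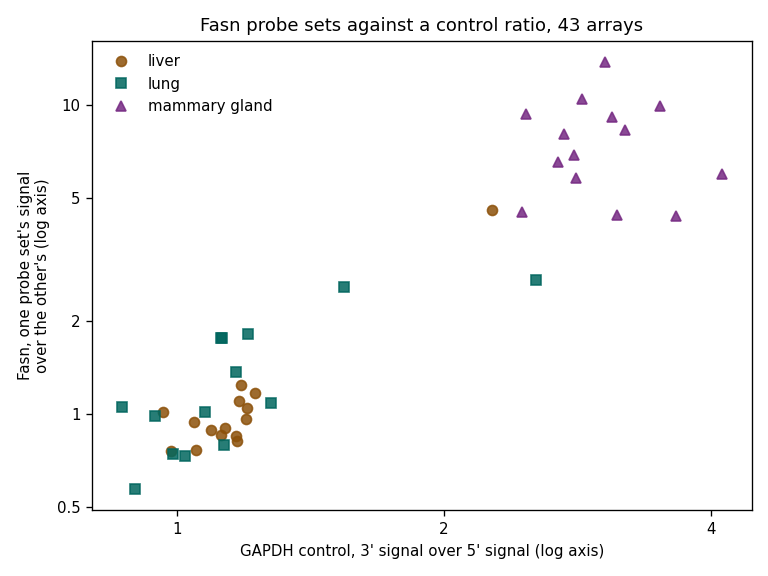
Ratio of the signals of the 2 Fasn probe sets, M76767_s_at over X13527cds_s_at, against the GAPDH control ratio of 3' to 5' signal on the 43 arrays (both axes logarithmic); symbols mark the organ. Mammary gland arrays sit at 4.38 to 13.7 on the vertical axis, 4HPR liver 4 at 4.56 and the other liver arrays at 0.760 to 1.24.

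Genes whose level resembled Fasn or Srebf1 most were ranked by Pearson correlation of log2 signal, with the lipogenic genes themselves left out of the ranking and given beside it. Each ranked gene entered with its probe set of highest correlation. Fasn was read by M76767_s_at, and its order of the organs, which enters the group means, depends on the probe set. Over the 12 group means, among 4217 probe sets with a gene symbol, the nearest genes to Fasn were Dlat, a subunit of pyruvate dehydrogenase (0.948), the kinase Stk39 (0.933), the lipid droplet protein Plin2 (0.933), Igfbp2, which binds insulin-like growth factors (0.930), and the peroxisomal protein Pex11a (0.914). The lipogenic genes gave 0.849 for Me1, 0.814 for Acly and 0.172 for Srebf1. Over the 15 liver arrays, among 4961 probe sets with a gene symbol, they were Tprg1l (0.948), the pyruvate dehydrogenase kinase Pdk2 (0.938), Pdlim1 (0.927), transketolase Tkt (0.926) and the transcription factor Gtf2b (0.919). Me1 gave 0.887, Acacb 0.818, Pnpla3 0.813, Acly 0.696, Acaca 0.664 and Srebf1 0.647.

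The genes outside the lipogenic set nearest to Srebf1 over the group means were Or9s23b (0.941), Ptms (0.894), Sycn (0.887), Crybb2 (0.885) and Or4b1d (0.881), which include olfactory receptor and lens crystallin genes. Over the liver arrays they were Nfic (0.812), Gdf15 (0.810), Mpi (0.800), Parp1 (0.799) and Tkt (0.787), while Me1, with a higher correlation than any of these, gave 0.842 and Fasn 0.647. The points share their groups and the scaling of the arrays, so the values describe these arrays and carry no test.

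Other genes of the pathway were taken from lists of named pathway genes. Among lipogenic regulators in liver with Targretin, 2 of 18 tested rose, 2 fell and 14 did not pass, where 11.2% of all probe sets passed in this comparison, and the median difference was 0.23. The nuclear receptor Nr0b2 (SHP) rose by 2.13 (adjusted p = 6.55e-06), and Insig1, which holds SREBPs in the endoplasmic reticulum, rose by 1.16 (adjusted p = 0.00250). The bile acid receptor Nr1h4 (FXR) fell by 1.09 (adjusted p = 0.00202), and so did Nfyb, a subunit of the factor NF-Y that binds CCAAT boxes (adjusted p = 0.00247). The liver X receptor genes Nr1h3 and Nr1h2 differed by -0.23 (adjusted p = 0.293) and 0.32 (adjusted p = 0.234).

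Among genes that supply citrate, acetyl-CoA and NADPH, 3 of 14 rose, 1 fell and 10 did not pass in Targretin livers, with a median of 0.27. Those that rose were Tkt (0.97) and transaldolase Taldo1 (0.49) of the pentose phosphate pathway and the cytosolic aconitase Aco1 (0.75), while cytosolic isocitrate dehydrogenase Idh1 fell by 0.61. Of 7 genes of elongation and desaturation, 3 rose and 1 fell, with a median of 0.39. The desaturases Scd and Scd2 rose by 2.84 and 2.91 and the elongase Elovl5 by 0.75, and the dehydratase Hacd3 fell by 0.96. Of 9 genes on a list for malonyl-CoA and acetyl-CoA carboxylase control, 1 rose, with a median of 0.28. Of all probe sets 11.2% passed in this comparison, so the count of this last list is close to the background. The gene that rose was the mitochondrial acyl-CoA thioesterase Acot2 (2.33), whose Targretin arrays were uneven. Its mean was 2978.5 with an SD of 2835, against 429.8 with an SD of 155.5 with diet.

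In the same livers, 0 of 5 glycerolipid synthesis genes, 0 of 3 other liver X receptor targets (Cyp7a1, Apoe and Lpl) and 0 of 5 lipase genes passed with limma, with medians of 0.30, 0.04 and -0.19.

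With 9cRA in liver, 0 of 18 regulators, 1 of 14 supply genes (Mdh1, higher by 0.52) and 3 of 7 elongation and desaturation genes passed. Of all probe sets 5.16% passed, so the counts of regulators and supply genes are close to the background. Scd rose by 1.82 while Scd2 fell by 1.81 and Hacd3 by 0.71. With 4HPR in liver, Scd rose by 1.76 (adjusted p = 0.00352) and Scd2 fell by 1.76 (adjusted p = 0.0131), 2 of 7, and Nfyb fell by 0.93, 1 of 18 regulators. Of all probe sets 2.78% passed, so the count of regulators is close to the background. Scd2 had a mean signal of 510.8 with 9cRA and 494.7 with 4HPR, against 1960 ± 1259 with diet (SD, n = 4). Biotinidase, Btd, which recycles the cofactor of the carboxylases, fell by 1.03 with 9cRA (adjusted p = 0.0461). The carboxylesterase Ces1d fell by 0.79 with 9cRA and hepatic lipase Lipc by 0.55 with 4HPR, each 1 of 5 lipase genes.

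In mammary gland with Targretin, 2 of 16 regulators rose, where 7.97% of all probe sets did, so the count is close to the background: Usf1, an E-box factor, by 1.15 (adjusted p = 0.0105) and the liver X receptor gene Nr1h2 by 1.10 (adjusted p = 0.0176). The citrate carrier Slc25a1 rose by 1.5, and the isocitrate dehydrogenases Idh2 and Idh1 fell by 1.17 and 0.63, so that 1 of 13 supply genes rose and 2 fell. The AMP kinase subunit Prkab1 rose by 0.86 and the propionyl-CoA carboxylase subunit Pcca fell by 0.72, among 8 genes tested. Hepatic lipase, Lipc, fell by 2.92 in mammary gland, beside the fall of the 17 hepatocyte markers. In lung with Targretin, 1 gene of these lists passed, the monoglyceride lipase Mgll, which rose by 1.80 (adjusted p = 0.0452), 1 of 3 lipase genes tested. In the other lists 0 of 17 regulators, 0 of 13 supply, 0 of 7 elongation and desaturation and 0 of 8 malonyl-CoA genes passed. The same held for 0 of 3 glycerolipid synthesis genes and 0 of 2 other liver X receptor targets. Of all probe sets 2.39% passed, so the count is close to the background.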

How the data were processed

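RNA from 43 samples of liver, lung and mammary gland was read on Affymetrix rat arrays. The deposited values are linear signal intensities per probe set, computed with MAS5 per the submitters' processing notes, and the authors' values share a trimmed mean, which points to global scaling. No source used here states the MAS5 version or the scanner. Gene symbols came from GEO's platform annotation, which names 7006 probe sets by 1 symbol each. The number of arrays limits the precision.

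The 59 control probe sets were set aside, leaving 8740. Values were taken as log2(signal + 38.3), the constant being the 10th percentile of the non-control values, which understates changes of dim genes. Testing in an organ required a signal above an array's own 40th percentile on 3 or more of its arrays, which left 6071 probe sets for liver, 5932 for lung, 6051 for mammary gland and 5114 shared by the 3 organs. All groups of an organ entered 1 limma fit (lmFit and eBayes with a trend, limma 3.58.1 in R 4.3.3), with Benjamini-Hochberg adjustment over the probe sets tested and a threshold of 0.05. Differences between organs came from 1 fit of all arrays. The fits were tested on simulated data.

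Every member gene was reported in every comparison with diet, passed or not. From each list, up to 4 passing genes of smallest adjusted p were named per comparison, and for Fasn and Srebf1 the 5 genes of highest correlation. The LXR receptor genes and the other LXR targets were named although they did not pass, after their values were seen. The members and lists were chosen with earlier results of these data known.

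Replicate numbers were not used as pairs in the main fits. Within an organ, the median correlation of deviations between same-numbered arrays of different agents was -0.0024 for liver, 0.0253 for lung and 0.0128 for mammary gland. It exceeded 0.1 in 0 of 21 such pairs in liver, 6 of 18 in lung and 3 of 18 in mammary gland. Whether same-numbered arrays of different organs came from 1 animal was not checked, and the fit of all arrays treated them as separate. The alternatives were quantile normalization, no filter, a constant 4 times larger, array weights, a replicate block, 1 fit of all arrays, only the groups compared, other probe sets, each array left out, and 4 arrays in doubt left out, which an earlier account of these data had named (Targretin mammary gland 3, Targretin lung 2, 4HPR liver 4 and diet liver 2). Leaving out the array of highest GAPDH ratio in liver and lung was chosen after seeing the data.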

Additional observations from a re-analysis of the deposited data

Results flagged for a closer look

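The change of Fasn with Targretin differed between organs (joint limma test, adjusted p = 4.23e-05). Its difference from diet was 3.03 in liver, 1.32 in mammary gland and -0.40 in lung. The adjusted p lay between 6.7e-06 and 0.000234 over the fits that left out 1 array and between 5.93e-07 and 0.000605 under the other alternatives on this probe set.

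The change of Me1 with Targretin also differed between organs (adjusted p = 0.00378), with differences of 1.91 in liver, -0.52 in mammary gland and -0.65 in lung. Without Targretin liver 1 the adjusted p was 0.0285, the highest over the arrays left out. Over 7 genes in 7 groups of 4 arrays, 0 of 49 sets of values held an array standing apart from the other values of its group by Dixon's criterion, which chance alone meets in about 1 set of 20. Groups of 3 arrays, which include every Targretin group, were not checked in this way. The count therefore says nothing about Targretin liver 1.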

How the results depend on the processing

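In liver with Targretin, 419 to 890 probe sets and 4 to 7 of the genes passed when 1 array was left out. The genes that passed were 3 to 5 for Targretin against 9cRA, 4 to 6 for Targretin against 4HPR and 0 to 0 for 9cRA against 4HPR. Against diet the ranges were 204 to 499 and 1 to 3 with 9cRA, and 92 to 280 and 1 to 2 with 4HPR. In lung they were 0 to 443 and 0 to 1 with Targretin, 0 to 38 and 0 to 0 with 9cRA, and 0 to 80 and 0 to 0 with 4HPR. In mammary gland they were 338 to 1057 and 0 to 3 with Targretin, 0 to 147 and 0 to 0 with 9cRA, and 0 to 0 for both with 4HPR. With array weights, 483 probe sets passed with 9cRA and 443 with 4HPR in liver, 696, 964 and 401 with Targretin, 9cRA and 4HPR in lung, and 1310 with Targretin in mammary gland, with 2 genes for 4HPR in liver and 2 for 9cRA in lung. Without the array of highest GAPDH ratio, 499 and 280 passed with 9cRA and 4HPR in liver, and 2 genes with 4HPR. Without the arrays in doubt, 2 genes passed with 4HPR in liver, and 0 genes and 409 probe sets with Targretin in mammary gland. With only the groups compared, 0 probe sets and 0 genes passed with Targretin in lung and 1 probe set with 9cRA, as with no filter. In mammary gland 1 gene passed under quantile normalization and 1 with no filter. With the replicate block 0 probe sets and 0 genes passed with Targretin in lung. With quantile normalization the sign turned for Me1 with 9cRA in liver (0.00058) and in lung (-0.013), for Srebf1 between 9cRA and 4HPR in liver (-0.053) and for Srebf1 with 4HPR in mammary gland (0.008178). That Srebf1 difference between 9cRA and 4HPR was also -0.001502 with the larger constant, -0.15 with array weights, and -0.21 without the arrays in doubt or without the array of highest GAPDH ratio, where Fasn gave 0.004037 in both. Acly with 9cRA in liver gave -0.046 without the arrays in doubt. For 4HPR in mammary gland the replicate block gave 0.21 for Srebf1, 0.063 for Acly, 0.20 for Me1 and 0.030 for Pnpla3, and array weights gave 0.39 for Srebf1 and 0.16 for Me1. The block ended or made no call of a member other than those given in the report. Other probe sets turned the sign of genes that had not passed. In liver these were Acly with 9cRA (-0.13) and 4HPR (-0.13), Me1 with 4HPR (-0.31), and, between 9cRA and 4HPR, Fasn (0.58) and Acly (0.30). In lung they were Fasn (0.24) and Acly (0.38) with Targretin, Fasn (0.27), Acly (0.19) and Me1 (-0.47 and -0.14) with 9cRA, and Fasn (0.082), Acly (0.19) and Me1 (-0.16) with 4HPR. In mammary gland they were Me1 (0.78 and 0.21) with Targretin, Acly (0.85) and Me1 (0.54 and 0.005472) with 9cRA, and Acly (0.10) and Me1 (0.23, 0.024 and 0.074) with 4HPR. Leaving out 1 array turned signs within these ranges, in liver: -0.046 to 0.30 for Acly and -0.16 to 0.052 for Me1 with 9cRA, -0.003872 to 0.35 for Acly between Targretin and 4HPR, and -0.21 to 0.26 for Srebf1 and -0.17 to 0.004037 for Fasn between 9cRA and 4HPR. In lung the ranges were -0.31 to 0.006944 for Acly with Targretin, -0.013 to 0.24 for Me1 with 9cRA and -0.14 to 0.032 for Fasn with 4HPR. In mammary gland they were -0.17 to 0.32 for Acly and -0.085 to 0.76 for Pnpla3 with Targretin, -0.57 to 0.17 for Me1 with 9cRA, and with 4HPR -0.38 to 0.56 for Srebf1, -0.026 to 0.90 for Acaca, -0.22 to 0.073 for Acly, -0.25 to 0.32 for Me1 and -0.34 to 0.19 for Pnpla3. Over all member results, leaving out 1 array kept direction and side of the threshold in 1479 fits, ended a call in 53 and made one in 8, and the other alternatives did so in 665, 22 and 20. The cause of these changes was not tested. Groups of 3 or 4 arrays, dim probe sets (Acacb and Acaca outside liver, Pnpla3 in lung) and probe sets that read different parts of a transcript limit what these arrays resolve.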
